A study of Mus musculus with 217 samples.

Results

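Fgfr3 and Spry2 are the subject here: a receptor of fibroblast growth factor (FGF) signalling and one of its feedback inhibitors. They are 2 of the 9739 genes measured in single cells of mouse growth plate cartilage. Both were chosen by name, with earlier results of these data known, and read across every cell. All 217 cells came from the tibia at postnatal day 7, from the C57/BL strain and a wild-type genotype, with no treatment given. Since the labels name neither animals nor plates, the cells form 1 group, which counts as 1 sample, and no test of any difference was possible. Values below are log2(value + 1) of an abundance whose unit is not given in the sources used here, and a gene is called detected at 1 or above. Intervals are exact 95% binomial ones (Clopper-Pearson) and speak of counting error alone.

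FGF ligands bind receptors of the Fgfr family together with heparan sulfate, and the signal runs through adaptors and RAS to the kinases of the ERK cascade. In growth plate cartilage, Fgfr3 is known as a brake: its signal slows the division of chondrocytes, and overactive forms of it cause short-limbed dwarfism. Cdkn1a, an inhibitor of cyclin-dependent kinases, is among the genes this signal is known to induce through STAT factors. Spry2 encodes Sprouty 2, an intracellular inhibitor that is itself induced by receptor tyrosine kinase signals and dampens RAS activation. Sox9 specifies chondrocytes and falls as they become hypertrophic, whereas Col10a1, the collagen of hypertrophic cartilage, marks the end of the sequence.

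In GRCm38, the assembly that mm10 denotes, GENCODE M21 places Fgfr3 (ENSMUSG00000054252.18) on chromosome 5 from 33721674 to 33737068 on the plus strand, with 17 transcripts. Spry2 (ENSMUSG00000022114.5) lies on chromosome 14 from 105891947 to 105896819 on the minus strand and has 1 transcript. Both are protein-coding, and the values are 1 per gene, so that transcripts were not told apart.

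Of the 217 columns, 52 formed 23 sets of near-identical columns, which were averaged, and 1 column, taken as a mixture of cells, was left out. Of the profiles this left, 11 had Acan, the aggrecan gene of cartilage, below 5. All others are called Acan-positive and carry the results below. No profile was near that limit: the 11 reached at most 2.91, and the Acan-positive profiles began at 6.67. Sox9 was detected in every Acan-positive profile, and 14 of the 15 chondrocyte markers were detected in 91.5% or more of these profiles. The exception was Col2a1, the main collagen of cartilage, which was detected in 37 profiles (21%) and whose median was 0. Of other cell types, Pecam1, the 1 measured endothelial marker, was detected in 2.27% of these profiles, and the 5 measured macrophage and osteoclast markers in 2.84 to 68.2%. The highest of these was Ctsk, a protease of osteoclasts, and no other passed 15.3%. Of the 7 measured osteoblast markers, Col1a2 was detected in 88.6%, Sp7 in 45.5% and the rest in at most 21%. A profile held 1326 to 4994 detected genes with a median of 3463.5. How deeply each cell was sequenced is not known, since scaled values carry no read totals.

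One set of profiles stood apart from the rest. When the profiles were clustered on variable genes with Fgfr3, Spry2, Sox9, Col10a1, Cdkn1a, Acan and the FGF pathway lists left out, the Acan-positive profiles fell into 3 clusters of 27, 72 and 77. The cluster of 27 was taken as the one of highest mean Col10a1 (10.84 against 5.81 in the others), and the same 27 profiles formed a cluster at each number of clusters from 3 to 8. All of these were cuts of the same tree, in which a branch stays whole until it is itself split. They are therefore not independent of each other. The clusters were weakly separated, with a silhouette of 0.138 at 3 clusters. After Col10a1, the leading genes of the set of 27 were Cd200, Ibsp, Ptgis and Hist1h1c. It held a median of 3981 detected genes against 3347, and the 86 ribosomal protein genes had a median mean level of 8.64 against 8.21. Of the 7 osteoblast markers 6 had higher means in the set, as did 6580 of all 9739 genes. Ibsp (4.85 against 0.59) and Col1a1 (2.11 against 0.29) were among the 6. The mean level of the list had a median of 2.15 (0.24 to 6.17) against 0.99 (0 to 6.36). The part of these markers in the results below was not tested. None of its profiles came from repeat columns, whereas 23 of the others did. No label divides these cells, so a stage of the cells and a difference in handling cannot be told apart. Most results below are therefore given with and without the set.

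Spry2 was widely detected. It was found in 92.6% of the Acan-positive profiles (interval 87.7 to 96%) and missed in 13. Its median was 7.13, with a lowest value of 0 and a highest of 9.95. The middle of the distribution was narrow, with quartiles of 5.75 and 7.94, and a tail reached down to the 13 profiles in which Spry2 was not detected. All 13 of these were listed at 0, where absent RNA and a failed estimate cannot be told apart. Across the 23 repeat sets Spry2 was detected in every column of 22 sets and in no column of the remaining set. The SD between repeats was 0.76, against 2.51 between profiles, although the widest set spanned 3.26. A value of 0 was thus shared by all columns of the repeat set that held it, and no repeat set mixed detection with absence. That repeat set lay outside the 27 profiles that stood apart, which held 10 of the 13 profiles without Spry2. None of the 27 came from repeat columns, so how well low or absent Spry2 repeats there is not known.

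Fgfr3 was rare and low. It was detected in 13 of the Acan-positive profiles (7.39%, interval 3.99 to 12.3%), and the median over all profiles was 0. The 13 values were 1.05, 1.14, 1.31, 1.55, 1.56, 1.82, 1.87, 1.97, 2.51, 2.63, 2.84, 3.55 and 3.87. A further 12 profiles had values above 0 but below 1, and all the rest were at 0. The gene was above 0 in 26 of the 217 columns. Every gene in the table is above 0 in at least 10 columns, and 25% of the genes were above 0 in fewer columns than Fgfr3.

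Detection of Fgfr3 did not repeat between columns of the same set. It reached 1 in some column of 3 repeat sets and in every column of none. In the first of these sets the columns read 1.07 and 0.66, in the second 1.32 and 0, and in the third 0 and 1.61. Averaging put all 3 sets below 1, at 0.87, 0.66 and 0.80, so that none of them is among the 13 profiles. The profiles without Fgfr3 therefore cannot be read as cells without the receptor.

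**Figure D1:**
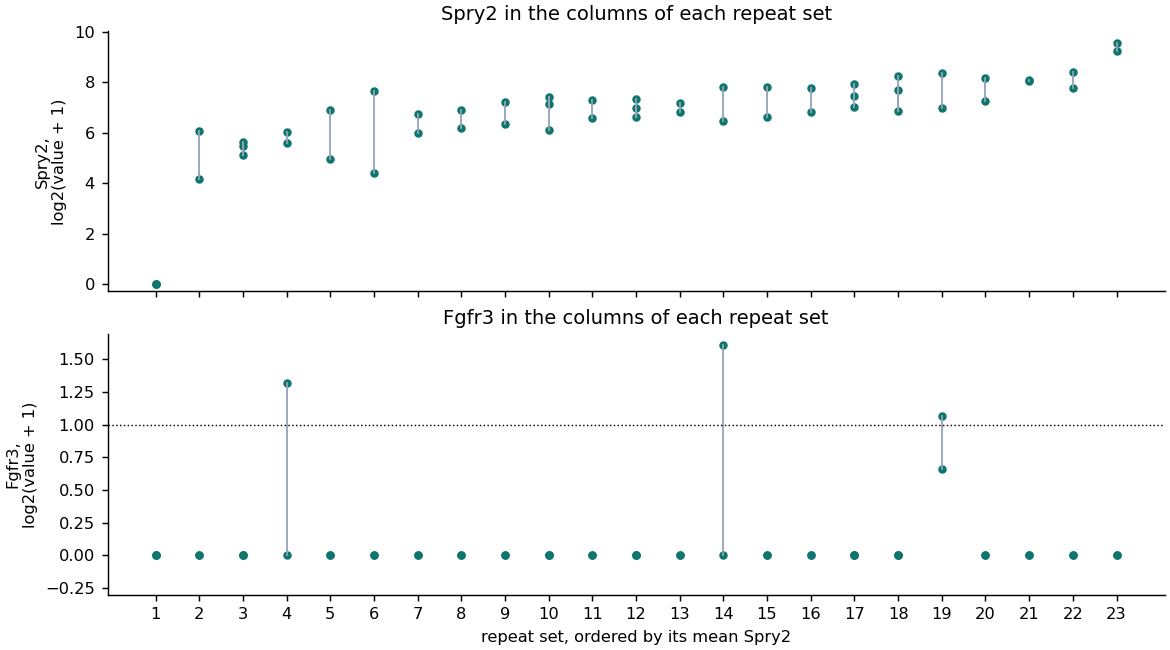
Spry2 (top) and Fgfr3 (bottom) as log2(value + 1) in the columns of each of the 23 repeat sets, ordered by mean Spry2; each point is 1 column, a line joins columns of a set, and the dotted line marks detection at 1. Spry2 is at 0 in all columns of the first set and above 4 in all others, whereas the 3 sets with an Fgfr3 value of 1 or above each have a column below 1.

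Most profiles with Fgfr3 lay in the lower tertile of Spry2. Since Fgfr3 was rare and low, profiles high in both genes were bound to be rare as well. Both were detected in 8 profiles, Fgfr3 alone in 5 and neither in 8, and all the others had Spry2 alone. The 13 profiles with Fgfr3 had Spry2 at a lowest value of 0, a median of 2.39 and a highest of 7.55, against a median of 7.29 in the profiles without it. The range of Spry2 with Fgfr3 lay wholly within that without it (0 to 9.95), and 3 profiles with Fgfr3 had Spry2 at 5.36, 6.68 and 7.55. Read the other way, Fgfr3 was detected in 11 of the 58 profiles in the lower tertile of Spry2, in 2 of 59 in the middle tertile and in 0 of 59 in the upper tertile, a count that allows a share of up to 5.08% by the limit of 3 profiles, and of up to 6.06% by the exact interval. Spearman's rho between the genes was -0.32 and Pearson's r -0.45 over the Acan-positive profiles (n = 27, 72 and 77 in the 3 clusters). Both values of a pair come from 1 library and share its depth, which holds for every correlation below. Within the set of 27 profiles rho was -0.51, and over the clusters of 72 and 77 together it was -0.08 and r -0.10.

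Fgfr3 was found mostly where Col10a1 was high. It was detected in 1 of 39 profiles with Col10a1 below 1 (2.56%, interval 0.0649 to 13.5%), in 1 of 55 with Col10a1 from 1 to 8 (1.82%, 0.0460 to 9.72%) and in 11 of 82 with Col10a1 at 8 or above (13.4%, 6.89 to 22.7%). Of the 13 profiles with Fgfr3, 10 had Col10a1 at 10 or above. The exceptions had Col10a1 at 0, 2.80 and 9.80, and their Fgfr3 values were 1.55, 2.84 and 1.05. The intervals of the lower, middle and upper ranges all overlapped each other.

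Within the range of high Col10a1, the profiles with Fgfr3 were concentrated in the set that stood apart. There it was detected in 9 of 26 profiles (34.6%, interval 17.2 to 55.7%), and in 2 of the 56 other profiles with the same range of Col10a1 (3.57%, 0.435 to 12.3%). These intervals did not overlap, but they treat the cells as independent, and the set was defined after seeing the data. They are therefore no test of a difference. Over all values of Col10a1 the counts were 9 of 27 (33.3%, 16.5 to 54%) against 4 of the other profiles (2.68%, 0.736 to 6.73%). The set also had more genes detected per profile and higher ribosomal protein transcripts, and the part of these in the detection of Fgfr3 was not tested.

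The profiles with Fgfr3 were described by their other markers. Sox9 had a median of 6.55 (4.84 to 9.92) in the 13, against 9.03 (2.34 to 11.69) in the profiles without Fgfr3. Cdkn1a had a median of 4.95 (1.61 to 6.18) against 4.01 (0 to 6.16), and Acan of 9.89 (8.58 to 11.02) against 9.14 (6.67 to 10.97). The ranges overlapped for each of these genes. The 4 profiles with Fgfr3 that lay outside the set of 27 were unlike each other. The profile with Fgfr3 at 2.84 had Sox9 at 9.90 and Col10a1 at 2.80, and the one at 1.55 had Sox9 at 9.68 and Col10a1 at 0. The one at 1.14 had Sox9 at 9.92, Col10a1 at 10.83 and Mki67 at 2.91, and the one at 1.56 had Sox9 at 5.39, Col10a1 at 12.14 and Mki67 at 4.16. The detection limit of 1 divides close values, since 9 profiles had Fgfr3 within 0.5 of it.

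Fgfr3 had relations with Col10a1 and Cdkn1a of opposite sign inside and outside the set, and with Sox9 of the same sign. Its rho was -0.31 with Sox9, 0.23 with Col10a1 and 0.22 with Cdkn1a, and Pearson's r was -0.30, 0.18 and 0.17. Outside the set of 27 profiles these rho values were -0.09, 0.07 and 0.08. Within it they were -0.16, -0.30 and -0.25, so that the sign for Col10a1 and Cdkn1a was opposite to that over all Acan-positive profiles. With the number of detected genes held constant, they were -0.25, 0.15 and 0.16, and Fgfr3 itself had a rho of 0.26 with that number. By tertiles of Sox9, Fgfr3 was detected in 10 of 58 profiles in the lower tertile (Sox9 up to 8.44), in 0 of 59 in the middle tertile and in 3 of 59 in the upper tertile (Sox9 from 9.44). By tertiles of Cdkn1a it was detected in 3 of 58, 1 of 59 and 9 of 59 profiles, the last with Cdkn1a from 4.46 to 6.18. With 13 detections, these counts describe few cells.

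Spry2 was lower where Col10a1 was high. In the 39 profiles with Col10a1 below 1 it was detected in all, at 1.51 to 9.40 with a median of 7.56. In the 55 profiles with Col10a1 from 1 to 8 the median was 7.45 (0 to 9.95), and in the 82 with Col10a1 at 8 or above it was 6.49 (0 to 9.38). The means were 7.38 ± 1.45 (SD over profiles, n = 39), 6.89 ± 2.19 (n = 55) and 5.44 ± 2.80 (n = 82), so that the highest range was lower than the lowest by 1.94, which is smaller than the SD over profiles within the highest range. The ranges overlapped over nearly their whole length. The cuts divide a continuum: 8 profiles lay within 0.5 of the lower cut and 16 within 0.5 of the upper.

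**Figure D2:**
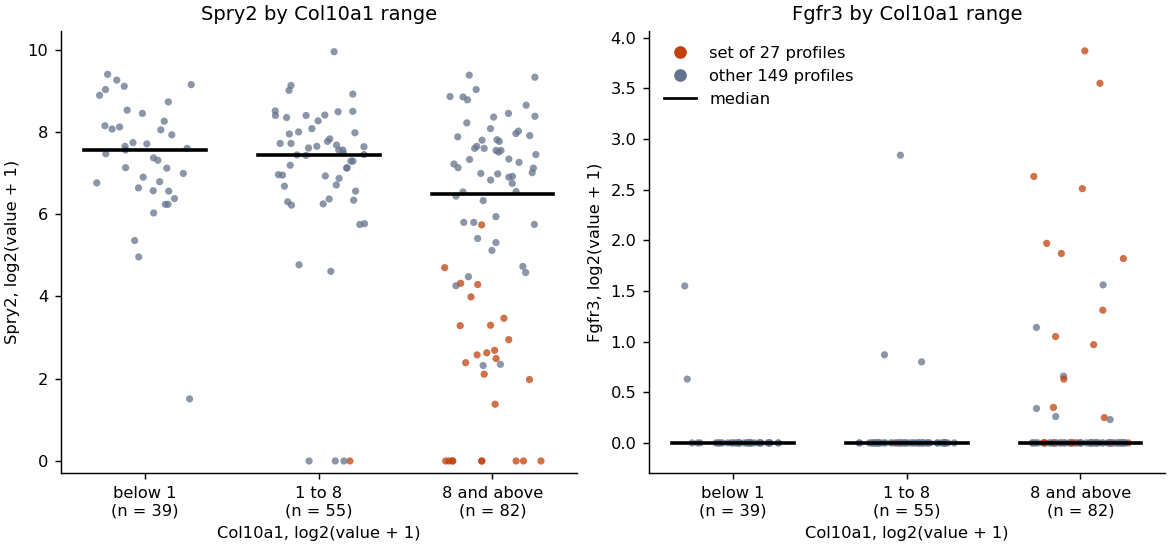
Spry2 (left) and Fgfr3 (right), as log2(value + 1), by range of Col10a1; each point is 1 Acan-positive profile, orange for the set of 27 that stood apart and grey for the others, spread sideways at random, and bars are medians. Low Spry2 and detected Fgfr3 in the range of high Col10a1 are mostly orange, while the grey points of Spry2 there have a median of 7.29.

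That difference lay in the set of 27 profiles as well. Among profiles with Col10a1 at 8 or above, Spry2 had a median of 2.44 in the 26 profiles of the set (0 to 5.74) and of 7.29 in the 56 others (2.32 to 9.38), close to the 7.56 of profiles without Col10a1. Without the set, the difference in mean between the highest and the lowest range of Col10a1 was -0.38, with means of 7.00 ± 1.53 (SD over profiles, n = 56) and 7.38 ± 1.45. No test of that remaining difference was possible.

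Of all 9739 genes, Spry2 had the largest negative difference between the set and the other profiles. Its mean was 2.01 ± 1.80 (SD over profiles, n = 27) against 7.10 ± 1.69 in the clusters of 72 and 77, a difference of -5.09. Of the genes detected in at least 20% of profiles, 4.87% were lower in the set by 1 or more. Spry2 was detected in 17 of 27 profiles (63%, interval 42.4 to 80.6%) and in all but 3 of the others (98%, 94.2 to 99.6%). The median difference over all genes was 0.20. Fgfr3 differed in the opposite direction, with means of 0.84 and 0.07, and 1952 genes had a larger positive difference. Spry2 had no part in the clustering, but cells that resemble each other in many genes resemble each other in this one too, so the difference is a description of the set. Spry2 was below 4 in 29 profiles, of which 23 belonged to the set. Of the 13 profiles in which Spry2 was not detected, 10 belonged to it. Those 13 had a median Sox9 of 6.65 (4.82 to 10.11) and a median Col10a1 of 10.62 (3.56 to 12.76), and Fgfr3 was detected in 5 of them (38.5%, interval 13.9 to 68.4%) against 4.91% (2.14 to 9.44%) of the profiles with Spry2.

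The relation of Spry2 with Sox9 was the closest of the 3 that were examined. Over the Acan-positive profiles rho was 0.47 and r 0.63, and of 5379 other genes detected in at least 20% of profiles 7 had a higher rho with Sox9. In the lower tertile of Sox9 Spry2 had a median of 4.30 (0 to 9.95), in the middle tertile 7.43 (4.61 to 9.38) and in the upper tertile 7.56 (0 to 9.40). Of the 13 profiles in which Spry2 was not detected, 12 lay in the lower tertile, with Sox9 up to 8.44. Outside the set of 27 profiles rho was 0.21 and r 0.39, and within it rho was 0.15. Sox9 itself averaged 6.56 in the set and 9.02 outside it.

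With Col10a1 the rho of Spry2 was -0.36 and r also -0.36, and 27 of 5379 genes had a lower rho. Outside the set both were nearer 0, at -0.12 and -0.11, and within it rho was 0.20, of opposite sign. With Cdkn1a rho was -0.24 and r -0.28, and 69 genes had a lower rho. Here the sign was opposite on both sides, with rho at 0.06 outside the set and 0.10 within it. The medians of Spry2 over tertiles of Cdkn1a were 7.15, 7.64 and 5.80, so that the lowest tertile of Cdkn1a was not the highest in Spry2. Cdkn1a averaged 5.07 in the set and 3.62 outside it. Given the number of detected genes, the rho values of Spry2 were 0.46 with Sox9, -0.33 with Col10a1 and -0.21 with Cdkn1a. Spry2 had a rho of -0.14 with that number itself.

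**Figure D3:**
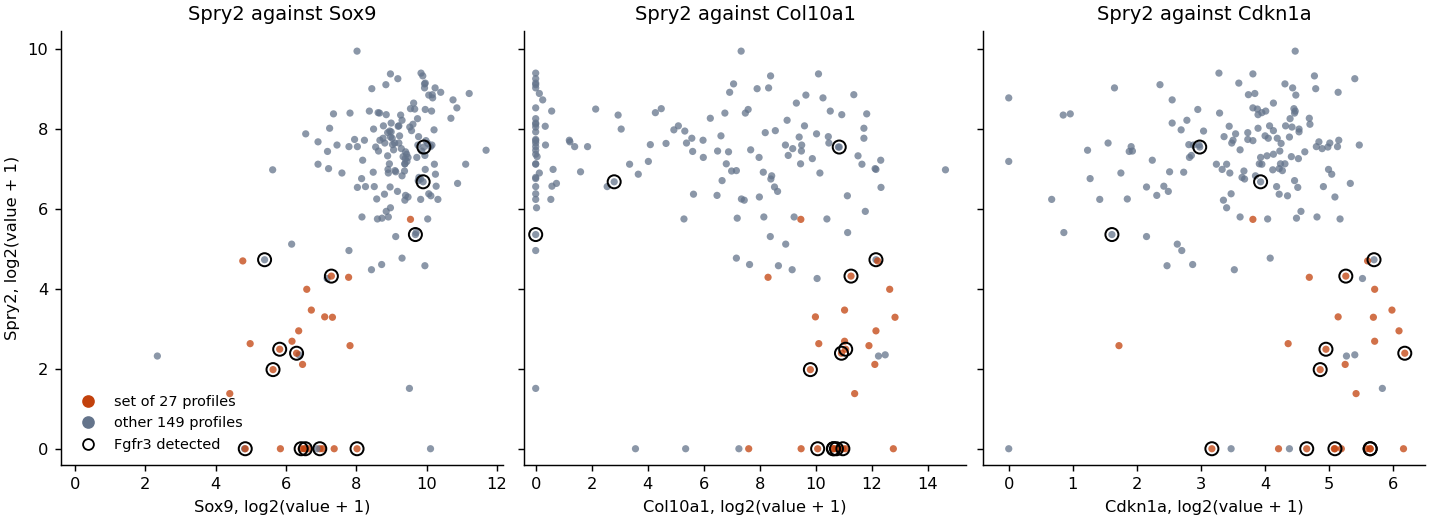
Spry2 against Sox9, Col10a1 and Cdkn1a, all as log2(value + 1); each point is 1 Acan-positive profile, orange for the set of 27 that stood apart and grey for the others, and black rings mark the 13 profiles with Fgfr3 at 1 or above. The orange points occupy low Spry2 with Sox9 mostly below 8.44, and 9 of the 13 rings lie on them.

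Dividing cells and cells with Ihh, the hedgehog ligand of prehypertrophic chondrocytes, were also compared. Fgfr3 was detected in 3 of the 15 profiles with Mki67, a marker of cycling cells (20%, interval 4.33 to 48.1%), and in 10 of those without it (6.21%, 3.02 to 11.1%), and the intervals overlapped. Spry2 had medians of 6.99 (1.38 to 9.15) and 7.13 (0 to 9.95) in these profiles, and the ranges overlapped. Fgfr3 was detected in 7 of 61 profiles with Ihh (11.5%, 4.74 to 22.2%) and in 6 of those without it (5.22%, 1.94 to 11%). Spry2 had a median of 6.37 with Ihh and of 7.43 without it, over ranges of 0 to 9.15 and 0 to 9.95. Ihh itself was detected in 22 of the 27 profiles of the set that stood apart (81.5%) and in 26.2% of the others. Of the profiles with both Fgfr3 and Ihh, only that with Fgfr3 at 1.55 lay outside the set. The comparisons by Mki67 and Ihh were not made without the set, and its part in them was not tested.

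The rest of the pathway was read from 9 lists, of which 59 genes were measured and 46 were detected in at least 20% of profiles. Of the ligand list 3 members were measured. Fgf1, a secreted growth factor, was detected in 11 profiles, Fgf13, an intracellular homologue that does not act as a secreted ligand, in 7, and Fgf21, a hormone, in 5. Fgfr3 was the only receptor measured, and the other members of these lists were not analysed here. Of the 9 measured heparan sulfate carriers, Sdc4 (syndecan 4) and Gpc1 (glypican 1) were detected in every profile, at medians of 12.32 and 7.50. Hspg2, which encodes perlecan, Gpc3, Sdc3 and Sdc2 were detected in 98.9%, 98.3%, 97.7% and 81.8%, and Sdc1, Gpc4 and Gpc6 in 52.3%, 45.5% and 6.82%.

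Within the cascade, Nras, a RAS GTPase, was detected in 98.9% of profiles, the kinase Mapk3 in 63.1% and the receptor adaptor Frs2 in 22.2%. Among the inhibitors, Spry2 was the most widely detected. Spred1, a Sprouty-related inhibitor, followed at 80.7%, then Dusp6, a phosphatase of ERK, at 64.8%, the RAS GTPase activators Nf1 and Rasa1 at 48.9% and 41.5%, and Spry4 at 40.9%. Of transcripts that respond to ERK, Egr1 was detected in 98.3% and Etv5, an ETS factor, in 28.4%.

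The relations of these genes with Spry2 were read in the same way. Of 45 pathway genes, 5 had a rho of at least 0.2 with it and 5 a rho of at most -0.2, where 5.19% and 7.36% of the 5379 other genes did. Those above were Sdc4 (0.56), Nras (0.31), Ier3 (0.28), Cdkn1b (0.27), a cell cycle inhibitor, and Fosl1 (0.26), a partner in AP-1. Braf and Prkg2 round to 0.20 and lay just under it. Those below were Npr2 (-0.32), the receptor of C-type natriuretic peptide, which counters FGF signalling in cartilage, Cdkn1a (-0.24), Hspg2 (-0.22), Fos (-0.21) and Dusp7 (-0.20). Dusp7 is also on the list of feedback inhibitors. The rest of that list among the 45 genes ran from -0.03 for Cbl to 0.15 for Spry4, with Dusp6 at 0.11 and Spred1 at 0.10. The ERK-responsive Egr1 was at -0.11 and Etv5 at 0.10. The median over the 45 genes was -0.02, the same as over all genes. Outside the set of 27 profiles, Sdc4 (0.30), Fosl1 (0.26), Ier3 (0.22) and Cdkn1b (0.20) had the highest values of the former, and Nras stood at 0.11. Of the genes below, Dusp7 stood at -0.19 and Npr2 at -0.16, whereas Cdkn1a stood at 0.06, Hspg2 at 0.02 and Fos at 0.07.

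**Figure D4:**
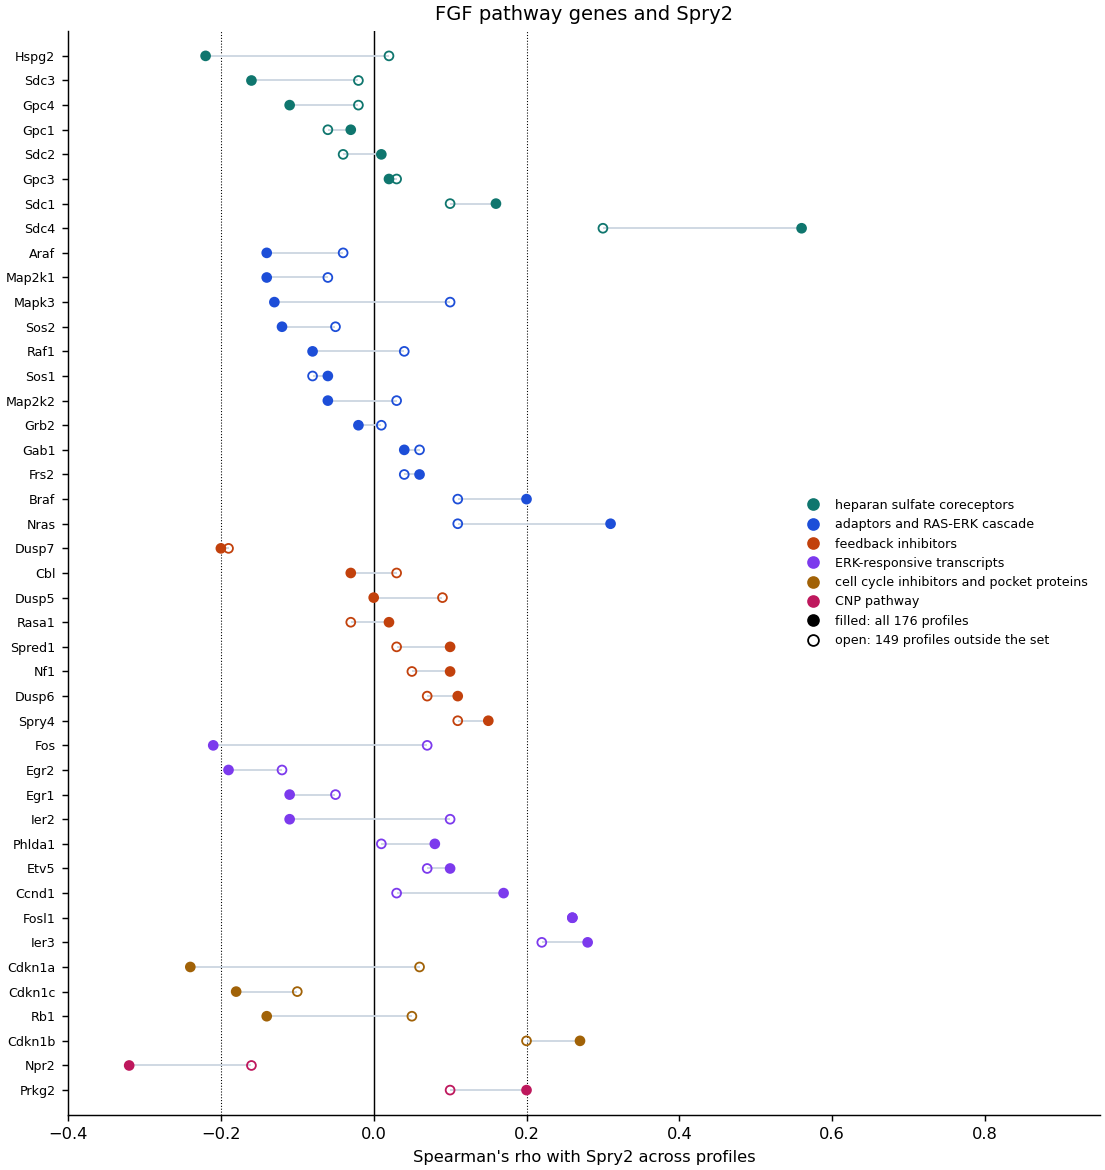
Spearman's rho with Spry2 across profiles for other FGF pathway genes detected in at least 20% of profiles, grouped by role; filled points are all Acan-positive profiles, open points those outside the set of 27, and dotted lines mark -0.2 and 0.2. Sdc4 is the highest in both, at 0.56 and 0.30, and most other genes lie between the dotted lines.

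With Col10a1, 8 of 46 pathway genes had a rho of at least 0.2, where 11.5% of 5379 genes did, and 5 a rho of at most -0.2, where 3.27% did. Npr2 and Fos were highest at 0.34, followed by Cdkn1a (0.30), Mapk3 (0.27), Hspg2 (0.25), the inhibitor Cdkn1c (0.24), Ier2 (0.23) and Rb1 (0.23). Spry2 was lowest at -0.36, below Sdc4 (-0.31), Nras (-0.29), Ccnd1 (-0.28), which encodes cyclin D1, and Ier3 (-0.24). Without the set of 27 profiles 2 genes remained above 0.2, Npr2 (0.25) among them and Gpc1 (0.24) newly so, and 0 below -0.2. The median over the pathway was 0.05 and over all genes 0.06.

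With Sox9, 6 pathway genes of 46 were at or above 0.2, against 3.64% of all genes, and 6 at or below -0.2, against 9.44%. Spry2 (0.47) and Sdc4 (0.43) led the former and Cdkn1a (-0.36) the latter. With Cdkn1a, 5 of 45 were at or above 0.2, against 9.17%, and 2 at or below -0.2, against 1.99%. Those 2 were Spry2 (-0.24) and Sdc4 (-0.23), and the highest were Hspg2 (0.35) and Ier2 (0.33).

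Other pathway genes were also compared between the set of 27 profiles and the others. Of the 46 genes, 12 were higher by at least 1 in mean, a share near the 21.5% of all 5380 genes, and 6 were lower by at least 1, where 4.87% of all genes were. Besides Spry2, the lower genes were Sdc4 (10.27 against 12.37), Ier3 (5.02 against 6.68), Ccnd1 (1.07 against 2.71), Nras (5.70 against 7.28) and Braf (1.91 against 2.93). The higher ones included Fos (9.15 against 5.65), Npr2 (3.55 against 1.03), Mapk3 (5.08 against 2.66), Ier2 (3.46 against 1.41) and Cdkn1a. Other inhibitors of the pathway differed far less than Spry2: Spry4 averaged 1.18 against 1.99, Dusp6 2.59 against 3.10 and Spred1 3.47 against 4.06. Spred3, detected in 15.3% of Acan-positive profiles, was too rare to be among the 46 genes. It was detected in 0 of the 27 profiles and in 27 of those in the clusters of 72 and 77. At that share few detections could fall in 27 profiles, and the share of all genes with such counts was not computed. Outside the set these inhibitors lay below the 7.10 of Spry2, and on a scale that ends at 0 they could not fall as far. Fos, Ier2 and Ier3 also belong to the 13 measured genes that can respond to dissociation. Of these, 11 had higher means in the set, as did 6580 of all 9739 genes, while Ier3 and Hsph1 (2.37 against 3.36) had lower ones. The mean level of the list had a median of 4.67 (2.91 to 6.48) in the set and of 3.73 (1.67 to 5.76) outside it. Their part in these differences was not tested.

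The genes most like Spry2 across the Acan-positive profiles, among the 5379 others detected in at least 20% of them, were Kdm6b (rho 0.59), a histone demethylase, Arglu1 (0.59), a splicing cofactor, and Rrn3 (0.58), an initiation factor of RNA polymerase I. Kdelr2 (0.57), a receptor that returns proteins to the endoplasmic reticulum, Sdc4 (0.56), Rap2b (0.55), a RAS-related GTPase, Pcnp (0.53), Insig1 (0.53), a regulator of sterol synthesis, Rbm15 (0.51), an RNA-binding protein, and Twf1 (0.51), which binds actin, followed. All 10 had lower means in the set of 27 profiles. They were chosen by rho over profiles that include this set, where Spry2 was far lower, so their lower means follow largely from that choice. Outside the set their rho values ran from 0.27 for Twf1 to 0.42 for Rap2b. The least alike were the ribosomal protein gene Rplp0 (-0.44), Eef2 (-0.44), a translation elongation factor, Peg3 (-0.42), Tceb2 (-0.42) and Smim5 (-0.41). Outside the set these 5 were nearer 0, at -0.15, -0.14, -0.21, -0.18 and -0.20 in the same order. Spry2 had a rho of -0.29 with the mean of the ribosomal protein genes, and 35 of these 86 genes had a rho of at most -0.2 with it, where 7.36% of all genes did, and 4 a rho of at least 0.2, where 5.19% did. That rho and these counts were not computed without the set.

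The genes most like Fgfr3, among 8853 others detected in at least 5% of profiles, were Rpl38 (rho 0.38), Obsl1 (0.37), Rps28 (0.36), Rplp0 (0.36) and Rps26 (0.36). Outside the set of 27 profiles their rho values were nearer 0, at 0.24, 0.25, 0.19, 0.15 and 0.20 in the same order. Of these genes, all except Obsl1, a cytoskeletal adaptor gene, encode ribosomal proteins, and those 4 were detected in 98.9% of profiles or more. Obsl1 was detected in 32 profiles and in 7 of the 13 with Fgfr3. Over all Acan-positive profiles, Fgfr3 had a rho of 0.36 with the mean of the ribosomal protein genes. In absolute size this was above its rho with Sox9, Col10a1 or Cdkn1a. It was not computed without the set, which held 9 of the 13 profiles with Fgfr3 and had higher ribosomal protein transcripts. In the 13 profiles with Fgfr3 the mean of the ribosomal protein genes had a median of 8.64 (8.47 to 9.51), and in the profiles without Fgfr3 8.23 (4.10 to 9.19). The part of ribosomal protein transcripts in the detection of Fgfr3 was not tested.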

How the data were processed

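Per the labels' protocols, growth plates were microdissected, polyA RNA was turned into cDNA with SMARTer chemistry, and libraries were made with Nextera XT. Per the submitters' processing notes, TopHat and mm10 were used; the sources used here do not give the quantifier, annotation or filters. On a log2 scale, from 0 to 15.14, stand the values the authors deposited. Base 2 and a pseudocount of 1 were inferred: totals per cell, back-transformed, varied by 7.33% (SD over mean) with base 2 and by 14.8% with base e. With base 2 they ran from 394406 to 616257, so depth had been scaled. The 1 row without a gene name was left out.

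Columns with r above 0.95 were averaged and column 204, taken as a mixture of cells, was dropped. Clusters came from 1000 variable genes, 10 principal components and Ward linkage, with 3 clusters chosen by silhouette (0.138, against 0.137 with 4). No doublet caller was run. Single values of 2 pathway genes are not reported here. Members, lists and relations were chosen with earlier results of these data known; the set of 27 profiles was defined after seeing the data. Genes named were the members, their 3 partners and Acan, list members by detection or by a rho of 0.2 or beyond, the 10 highest and 5 lowest in rho with Spry2 and the 5 highest with Fgfr3. Etv5, Egr1 and the other inhibitors beside them, and the genes of the set, were named after their values were seen. Alternatives changed detection, the Acan limit, repeats, the mixed column, scaling, pseudocount, Col10a1 range and type of correlation. Correlations and repeat finding were tested on simulated data. The software was SciPy 1.17.1, pandas 2.3.3 and NumPy 2.4.6 in Python 3.11.15. Clustering used scikit-learn 1.9.0, repeat sets came from NetworkX 3.6.1, and figures from matplotlib 3.10.9.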

Additional observations from a re-analysis of the deposited data

How the results depend on the processing

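Each of 14 values was recomputed under the alternatives that apply to it. Of the recomputed values 19 moved and 1 changed sign, and the others stayed near the main value (a share within its interval, a rho within 0.1, a difference within the SD between repeats of 0.76, a count within 1.5 times). The Fgfr3 detection share was 14.2% with any value above 0 and 1.14% with a back-transformed value of at least 10, where that of Spry2 was 84.7%. Without the Acan limit the rho of Spry2 with Col10a1 was -0.23 and its difference between Col10a1 ranges -0.98. Pearson's r of Spry2 with Sox9 was 0.63 against a rho of 0.47. Leaving out the set of 27 profiles, an alternative chosen after seeing the data, moved most relations. It gave detection shares of 2.68% for Fgfr3 and 98% for Spry2, rho values of Fgfr3 of -0.09 with Sox9, 0.07 with Col10a1 and 0.08 with Cdkn1a, and rho values of Spry2 of 0.21 with Sox9, -0.12 with Col10a1 and, with the sign changed, 0.06 with Cdkn1a. The Spry2 difference between Col10a1 ranges was then -0.38, and 2 pathway genes were at a rho of 0.2 or beyond with Col10a1 against 13. That fewer profiles and a narrower span enter there follows from its construction; any other cause was not tested. Given the number of detected genes, 4 pathway genes rather than 8 were at or above 0.2 with Col10a1, and after upper-quartile scaling 3 rather than 5 were at or below -0.2. The rarity of Fgfr3, its lack of repeatability and the unknown depth limit every statement on it. No paired analysis was possible because all cells form 1 group and no test was made.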

Other observations

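The 11 profiles with Acan below 5 enter none of the comparisons above. Fgfr3 was at 0 in all 11, a count that allows a share of up to 27.3% by the limit of 3 profiles, and of up to 28.5% by the exact interval. Spry2 was detected in 8 of them (72.7%, exact interval 39 to 94%), with a lowest value of 0, a median of 2.92 and a highest of 6.39. That median lay below the 7.13 of the Acan-positive profiles and near the 2.39 of the set of 27 profiles that stood apart. Sox9 was detected in 6 of the 11 and Col10a1 in 2, so that low Spry2 was found there without high Col10a1. Cdkn1a was detected in 10, at a median of 4.51, and Mki67 in 3.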
